A study of Mus musculus with 4 samples.

Results

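Myh6, Mybpc3, Ttn, Actc1, Tpm1, Tnnt2, Tnni3, Tnnc1, Actn2 and Tcap encode thick filament, titin, thin filament and Z-disc proteins of the heart muscle sarcomere. These 10 genes, of 29245 in the deposited tables, were taken as a list of names, with no threshold on a measured value, though earlier results of these data were known when they were listed. All 10 were found in each of the 4 libraries. Hearts of C57BL/6 mice, either wild type (WT) or Mst1/2-deficient (KO), had been dissociated, and low-speed centrifugation had separated a cardiomyocyte (CM) from a non-cardiomyocyte (NCM) fraction. Cells were spread over wells that each carry a barcode, and polyadenylated RNA was sequenced from single wells. Each of the 4 libraries was a chip of 1 genotype and 1 fraction, and each chip held wells of both animals of its genotype. The replicates are therefore the animals WT1, WT2, KO1 and KO2, named in the deposited per-well reports. The labels say nothing of age, of the deleted exons, of the driver of the deletion or of injury.

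The sarcomere is the repeating contractile unit of striated muscle. Thick filaments of myosin pull on thin filaments of actin, tropomyosin and troponin, titin spans from Z-disc to M-band, and the thin filaments are anchored at the Z-disc. In ventricular muscle these proteins are very abundant and their messages are used as marks of cardiomyocytes. MST1 and MST2, encoded by Stk4 and Stk3, are the core kinases of the Hippo pathway, which limits the co-activators YAP and TAZ, the partners of the DNA-binding TEAD factors.

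Promoter sequence was taken for 9 of the 10 genes from RefSeq (GRCm38.p6), over the 250 bases before the listed start, and letters were searched on both strands. Tcap had no entry. These sequences are shown because the 9 genes moved together between the fractions described further on. CATTCC, the core of the M-CAT element that TEAD factors bind, was present as CATTCC or GGAATG in 4 of the 9 windows, against 12.6% of 32851 promoters of the same length. The MEF2 box, named for a muscle transcription factor family, was found in 2 windows against 2.92%. The CArG box, bound by serum response factor, was found in 1 window against 1.47%. TATAAA occurred in 0 of the 9 windows against 12.4%, GATAA in 2 against 22.6%, and CANNTG in 8 against 66.2%. In the sequences that follow, written 5′ to 3′ on the strand of the gene, capitals mark the match and positions count back from the start.
Tnnt2, chr1:135836084-135836333, plus strand: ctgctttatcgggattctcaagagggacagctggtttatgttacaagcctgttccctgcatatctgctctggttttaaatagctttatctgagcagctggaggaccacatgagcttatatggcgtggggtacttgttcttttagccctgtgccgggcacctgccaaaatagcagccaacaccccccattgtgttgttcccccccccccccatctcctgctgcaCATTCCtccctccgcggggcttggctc
Tnnc1, chr14:31208062-31208311, plus strand: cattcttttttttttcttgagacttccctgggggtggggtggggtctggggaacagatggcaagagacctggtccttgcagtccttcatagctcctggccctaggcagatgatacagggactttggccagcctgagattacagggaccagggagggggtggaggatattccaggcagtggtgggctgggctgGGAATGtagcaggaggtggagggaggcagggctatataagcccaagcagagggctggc
Mybpc3, chr2:91117894-91118143, plus strand: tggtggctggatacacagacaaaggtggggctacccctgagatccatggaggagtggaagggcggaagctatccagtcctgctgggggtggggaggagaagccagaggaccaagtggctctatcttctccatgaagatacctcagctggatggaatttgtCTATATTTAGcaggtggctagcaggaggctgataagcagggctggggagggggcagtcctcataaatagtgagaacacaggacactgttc
Ttn, chr2:76982548-76982797, minus strand: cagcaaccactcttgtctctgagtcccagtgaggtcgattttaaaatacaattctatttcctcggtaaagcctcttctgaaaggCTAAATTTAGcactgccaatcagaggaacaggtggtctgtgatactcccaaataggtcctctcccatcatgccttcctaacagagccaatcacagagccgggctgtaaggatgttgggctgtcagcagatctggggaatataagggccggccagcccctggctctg
The capitals are CATTCC at -27 to -22 in Tnnt2, GGAATG at -58 to -53 in Tnnc1, and a MEF2 box at -90 to -81 in Mybpc3 and at -166 to -157 in Ttn. The Ttn start listed by RefSeq lay 2365 bases from the start of its principal GENCODE transcript. For Myh6, Tpm1 and Actc1, whose windows overlap annotated transcripts, 30 bases around the match are given.
Myh6, chr14:54966796-54966825, minus strand: ctttggggaggaGGAATGtgcccaaggact
Tpm1, chr9:67049252-67049281, minus strand: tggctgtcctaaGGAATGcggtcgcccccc
Actc1, chr2:114052903-114052932, minus strand: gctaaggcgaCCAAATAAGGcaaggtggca
Here the capitals are GGAATG at -206 to -201 in Myh6 and at -56 to -51 in Tpm1, and a CArG box at -47 to -38 in Actc1. A match of letters is a description of the window and no evidence of binding in these hearts.

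Of 4275 wells with a label, 3990 held at least 10000 unique molecular identifiers (UMIs) and 300 genes and were kept. Per animal these were 210 to 385 wells of the CM fraction, with a median of 64408 to 209238 UMIs, and 692 to 747 wells of the NCM fraction, with a median of 64290 to 96782. The libraries shared barcodes: 964 of 3195 distinct barcodes occurred in more than 1 of them. Levels are in CPM, the UMIs of a gene scaled to a total of 1000000 UMIs outside the mitochondrial and haemoglobin genes. The mitochondrial share of NCM UMIs was 7.45, 11.2, 58.1 and 36.5% in WT1, WT2, KO1 and KO2, the order used for values hereafter. Stk4 in the NCM fraction was 53.1, 47.3, 45.8 and 37.5 CPM (log2 difference -0.44, SE 0.280, edgeR adjusted p = 0.559), and Stk3 was 23.5, 38.6, 29.0 and 26.3 (-0.33, adjusted p = 0.757). With the deleted exons unknown, these values do not check the genotype labels. Wells were clustered without the sarcomere genes, and clusters 8, 9 and 12 were called cardiomyocyte-like from markers outside the sarcomere such as Cox6a2, Fabp3, Atp2a2 and Ryr2. In the CM fraction they held 149, 215, 195 and 344 wells. Clusters 8 and 12 got the name against other wells of the same fractions. Cluster 9 got it only against all other wells, those of the NCM fraction included.

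The 20 non-sarcomere cardiomyocyte markers, from which the clusters were named, summed to 48151, 60523, 21614 and 52907 CPM in the cardiomyocyte-like wells. Over all NCM wells they summed to 761, 2174, 1574 and 3502 CPM. KO1 had the lowest marker sum, the lowest median depth at 58581 UMIs per well against 90953, 125803 and 211399, and the highest mitochondrial share at 56.9% against 45.9, 40.1 and 37.6%. KO1 also had the highest summed level of the 10 endothelial markers in these wells, 3203 CPM against 1755, 1066 and 1054, and of the 10 fibroblast markers, 1423 against 788, 645 and 446, with Tcf21 at 0 in KO1. The 4 smooth muscle markers summed to 249, 192, 889.5 and 413 CPM, higher in both KO animals, with Myh11 at 0 in WT1. The part of these differences in the levels that follow was not tested.

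In the cardiomyocyte-like wells of the CM fraction the 10 sarcomere genes together made up 81804, 90441, 58266 and 87150 CPM. KO1 was the lowest animal, and KO2 lay between the WT animals. The middle 50% of single wells spanned 69674 to 95180 CPM in WT1, 72569 to 99274 in WT2, 46661 to 71107 in KO1 and 77941 to 94088 in KO2. The sums rest on 821958, 1928574, 390265 and 4426070 sarcomere UMIs, so counting error is small beside the spread between animals.

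Among the thick filament genes, Myh6 (ENSMUSG00000040752, chr14:54941921-54966927, minus strand, mm10; 39 exons) encodes the alpha myosin heavy chain, the main motor of the adult mouse ventricle. Its level was 6474, 9923, 4516 and 8676 CPM, and KO1 and KO2 lay on either side of WT1. Mybpc3 (ENSMUSG00000002100, chr2:91118144-91136516, plus strand; 35 exons) encodes the cardiac myosin-binding protein C. Its level was 1077, 1512, 1011 and 1379 CPM, with overlapping genotypes. Ttn (ENSMUSG00000051747, chr2:76703980-76982547, minus strand; 312 exons in the principal transcript) encodes titin, the giant elastic protein. Its level was 8789, 10389.8, 4926 and 7327 CPM, and both KO animals lay below both WT animals.

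Among the thin filament genes, Actc1 (ENSMUSG00000068614, chr2:114047282-114053548, minus strand) encodes cardiac alpha actin and was at 7889.54, 8089, 8522 and 10168 CPM. Both KO animals were above both WT animals. Tpm1 (ENSMUSG00000032366, chr9:67022590-67049406, minus strand), the main cardiac tropomyosin that covers myosin sites on actin, was at 18725, 18520.2, 13717 and 18630.2 CPM. Tnnt2 (ENSMUSG00000026414, chr1:135836354-135852260, plus strand), the troponin subunit that binds tropomyosin, was at 15880.0, 17191, 12112 and 17016 CPM. In both, KO1 was the lowest animal and KO2 lay within the WT range.

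Tnni3 (ENSMUSG00000035458, chr7:4518305-4524229, minus strand) encodes the inhibitory troponin subunit of adult heart, and its level was 12609.5, 14030.2, 5133 and 11719.9 CPM. Both KO animals were below both WT animals, and KO1 was far below the other 3. Tnnc1 (ENSMUSG00000091898, chr14:31208312-31211729, plus strand), the calcium-binding troponin subunit, was at 6681, 7017, 5131 and 8247 CPM, with the KO animals outside the WT range on opposite sides. At the Z-disc, Actn2 (ENSMUSG00000052374, chr13:12269426-12340760, minus strand), which encodes the actin cross-linker alpha-actinin-2, was at 944, 964, 805 and 1270.14 CPM. Tcap (ENSMUSG00000007877, chr11:98383811-98384953, plus strand), which encodes telethonin, the cap of titin's Z-disc end, was at 2735, 2805, 2393 and 2717 CPM. Actn2 was split like Tnnc1, and Tcap was lower in both KO animals, by little in KO2.

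**Figure D1:**
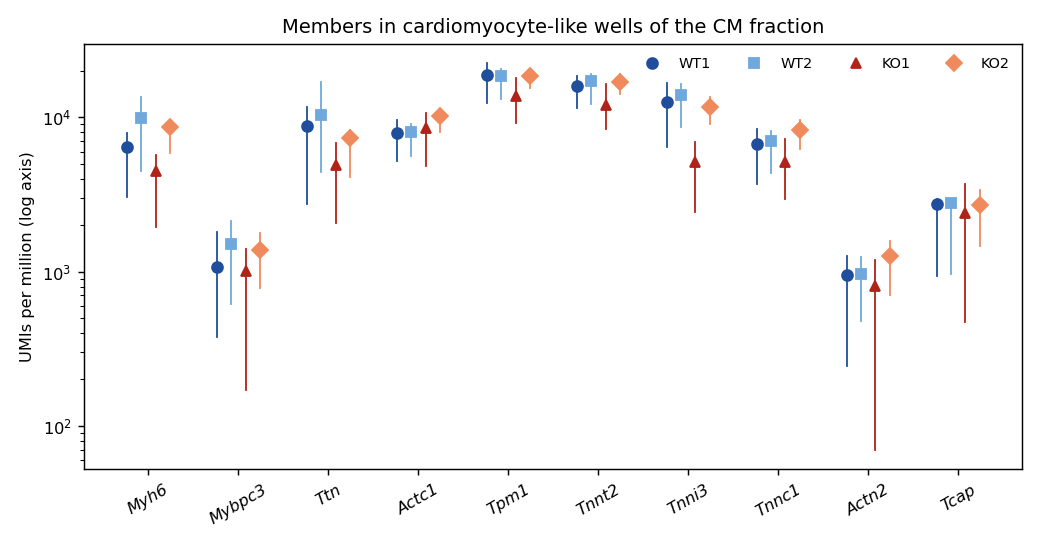
Levels of the 10 sarcomere genes in cardiomyocyte-like wells of the CM fraction, in UMIs CPM on a log axis; dots are sums per animal and lines span the middle 50% of wells. KO1 is the lowest of the 4 animals for every gene but Actc1, where it lies between the WT animals and KO2.

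The comparison of KO with WT asks whether the Mst1/2-deficient genotype label went with a change of these messages in the cardiomyocyte-like wells. There Stk4 was at 10.6, 9.80, 23.4 and 6.99 CPM (log2 difference 0.28, edgeR adjusted p = 0.980). Stk3 was at 13.0, 6.38, 14.2 and 12.5 CPM (0.32, edgeR adjusted p = 0.972). Neither difference was negative, and these values do not check the deletion in muscle cells either. None of the 10 genes passed edgeR's quasi-likelihood test on animal sums, and none had an unadjusted p under 0.05. Over all 13171 genes tested, edgeR called 0 (0%) and 521 had an unadjusted p under 0.05 (3.96%). DESeq2 called 40, none of them among the 10. The log2 differences, KO minus WT, were -0.42 (SE 0.657) for Myh6, -0.25 (0.491) for Mybpc3, -0.77 (0.584) for Ttn, 0.09 (0.542) for Actc1 and -0.33 (0.613) for Tpm1. They were -0.31 (SE 0.613) for Tnnt2, -0.74 (0.694) for Tnni3, -0.14 (0.580) for Tnnc1, 0.01 (0.485) for Actn2 and -0.26 (0.463) for Tcap. Their edgeR adjusted p ran from 0.957 to 0.999. Of the 10 differences 8 were negative, as were 49.5% of those of all genes tested, and the median was -0.29 against 0.01. Ttn, Tnni3 and Tcap did not overlap between genotypes and were lower in KO, where 16.6% of all genes did the same, and Actc1 did not overlap and was higher, where 17.4% did. Here and below, overlap of the sarcomere genes was judged on CPM, and the shares of all genes on CPM scaled by TMM factors. The measures thus differ, which matters for narrow gaps such as those of Actc1 and Tcap.

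With standard errors of 0.463 to 0.694 from 2 animals per genotype, differences of the size of Ttn and Tnni3 were not detectable. The value depended on which KO animal was kept. Without KO2, edgeR put Tnni3 at -1.80 (adjusted p = 0.00125; range over its alternatives 0.00125 to 0.9998), Ttn at -1.39 (adjusted p = 0.0079; range 0.0079 to 0.9998) and Myh6 at -1.30 (adjusted p = 0.0185; range 0.0185 to 0.9999), among 1083 genes called, 4.2% of the tested ones being called lower. Without KO1 they were at -0.14, -0.34 and 0.12, among 30 genes called. Genotype and chip were the same split within a fraction and cannot be told apart.

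Of 51 other sarcomere genes, 48 could be tested in the same wells, and 0 passed edgeR's test. Of these, 26 were higher and 22 lower in KO, 7 had an unadjusted p under 0.05, all higher, against 2.59% of all genes, and the median log2 difference of the 48 was 0.13. Groups did not overlap for 19 higher genes, against 17.4% of all genes, and for 8 lower genes, against 16.6%. The non-overlapping genes with the largest positive differences were Tnni1, Mybphl and Tnnt3. Mybphl, a myosin-binding protein of atrial muscle, was at 1.89, 2.49, 81.7 and 29.2 CPM (log2 difference 4.37). Tnnt3, the fast skeletal troponin T, was at 3.58, 1.83, 36.4 and 24.9 CPM (3.33). Tnni1, the slow troponin I of fetal heart, gave 3, 3, 116 and 42 UMIs (5.01), and those of KO1 came from 2 wells.

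The non-overlapping genes with the largest negative differences were Lmod3, Myl2 and Myl3. Lmod3, a thin filament leiomodin, was at 135, 174, 52.4 and 117 CPM (-0.95). Myl2, the ventricular regulatory light chain, was at 8028, 11269, 3227 and 7576 CPM (-0.92), and Myl3, the ventricular essential light chain, at 7341, 8336, 2652 and 6927 (-0.78). The atrial light chains stood the other way: Myl4 was at 76.8, 87.8, 676 and 392 CPM (2.47, SE 0.379) and Myl7 at 327, 450, 2434 and 1349 (2.05). All of these had an edgeR adjusted p of 0.957, so the light chain differences, like the others, did not pass.

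The partner of each member that marks another muscle type or stage was also counted. Myh7, the beta myosin heavy chain of fetal and stressed mouse heart, made up 3.002, 3.17, 7.33 and 3.56% of Myh6 plus Myh7 UMIs. Acta1, skeletal alpha actin, made up 8.11, 6.08, 20.4 and 6.49% of Actc1 plus Acta1. Tpm2, the beta tropomyosin, made up 0.150, 0.0357, 0.905 and 0.151% of Tpm1 plus Tpm2. Tnni1 made up 0.00237, 0.001003, 0.336 and 0.00706% of Tnni3 plus Tnni1, from the few UMIs given above. In each of the 4 pairs KO1 had the highest share. KO2 was within the WT range for Acta1 and above it for Myh7, Tpm2 and Tnni1.

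The 10 genes did not vary as a single block from well to well. Within each animal the Spearman correlation of each of the 45 pairs was taken across its cardiomyocyte-like wells and averaged over the 4 animals. Wells of an animal share a library, and levels within a well share 1 total, so these are descriptions. The highest mean was that of Myh6 with Ttn, 0.61 (0.399 to 0.730 over animals), followed by Tnni3 with Tnnc1, 0.59 (0.425 to 0.748), and Tnni3 with Tcap, 0.57. Mybpc3 went with Ttn at 0.49. The lowest were Ttn with Tnnc1, -0.21 (-0.562 to 0.177), and Ttn with Tnni3, -0.19, and 10 of the 45 means were negative. The messages of the myosin and titin genes and those of Tnni3, Tnnc1 and Tcap thus fell into separate sets, with Actc1, Tpm1 and Tnnt2 positively correlated with most of both. In KO1 no pair was negative, and its lowest value was 0.0776.

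**Figure D2:**
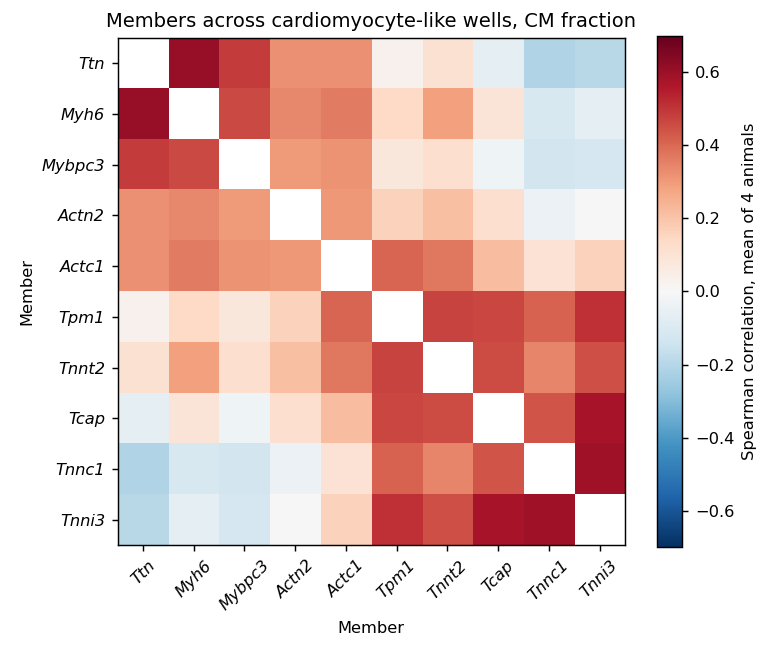
Mean Spearman correlation over 4 animals for each of the 45 pairs of sarcomere genes across cardiomyocyte-like wells of the CM fraction. Myh6, Mybpc3 and Ttn correlate positively with one another, while Ttn with Tnnc1 is at -0.21.

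The split between these sets went with the mitochondrial share of a well. Ttn had a correlation with it of 0.61, 0.76, 0.22 and 0.52 across the wells of the 4 animals, and the means were 0.46 for Myh6 and 0.40 for Mybpc3. Tnni3 had -0.41, -0.63, 0.12 and -0.33, and the means were -0.25 for Tnnc1 and -0.24 for Tcap. For Tnnt2 the mean was 0.01. Its part in the correlations between genes was not tested. The coefficient of variation over wells, averaged over animals, was lowest for Tnnt2 (0.352) and Tpm1 (0.354) and highest for Ttn (0.913) and Mybpc3 (0.978).

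The clusters also differed in these genes. Cluster 9, the largest with 84, 103, 130 and 207 CM wells, had Ttn at 5454, 5529, 5838 and 5661 CPM, nearly equal in all animals. Its Tnni3 was at 16522, 17361, 6547 and 12994, with both KO animals below both WT animals. In cluster 12, with 34, 87, 3 and 48 wells, Ttn was at 24141, 17504, 10591 and 19438 and Tnni3 at 8501, 10931, 3043 and 8210 CPM. Cluster 12 had more Ttn and less Tnni3 than cluster 9 in each animal. The median mitochondrial share of its wells was 61.5, 50.6, 59.4 and 43.2%, against 31.5, 29.0, 59.2 and 36.2% in cluster 9, so that in KO1 the clusters hardly differed in it. Only 3 wells of KO1 were in cluster 12. Cluster 8, with 31, 25, 62 and 89 wells, had the lowest sum of the 10 genes in each animal. That sum was 45083, 72749, 34423 and 71260 CPM, against 88875, 89841, 68216 and 88247 in cluster 9. The part of the cluster mix in the animal levels was not tested. Within cluster 9 alone, chosen after seeing the data, the edgeR log2 difference was -0.28 for Ttn and -1.07 for Tnni3, and 0 of the 10 genes passed. The fitted value for Ttn, scaled by TMM factors, was negative although the CPM of both KO animals were above those of both WT animals, so its direction there depends on the scaling.

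Of 1298 genes with a mean of at least 100 CPM, those most like the sum of the 10 across wells were Mb, Aldoa, Atp5b, Ckm and Map1lc3a. Their mean Spearman correlations over 4 animals were 0.44, 0.41, 0.39, 0.38 and 0.36. Mb encodes myoglobin, Ckm muscle creatine kinase, Aldoa a glycolytic aldolase, Atp5b a subunit of the mitochondrial ATP synthase and Map1lc3a an autophagosome protein.

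Between the fractions, all 10 genes were higher in CM than in NCM sums of the same animals, as the separation by centrifugation was designed to give. The log2 differences ran from 4.28 for Tpm1 and Tcap to 5.53 for Myh6, with edgeR adjusted p from 8.45e-05 to 0.00106 and the animal as a block. Of 17509 genes tested, 8.33% were called higher in CM (1459 genes, with 1037 lower), and the median of the 10 was 4.87 against -0.28 for all genes. With library totals in place of TMM factors the split was 1068 higher and 2895 lower, the median of all genes -0.81, and all 10 were still called higher. Of 50 other sarcomere genes tested, 47 were higher and 3 lower (Tpm2, Pdlim3 and Tnni2), and edgeR called 40 higher and 0 lower. In the thick filament and M-band list 12 of 15 tested passed, among them Myh7, Myh7b, Myl2, Myl3, Myl4, Myl7, Mybpc2, Mybphl, Myom1, Myom2 and Smyd1. In the thin filament list 7 of 12 passed: Acta1, Tnnt1, Tmod1, Lmod2, Lmod3, Neb and Nebl. In the Z-disc and titin-linked list 21 of 23 passed, that is all but Myoz1 and Pdlim3: Ldb3, Csrp3, Myoz2, Myot, Mypn, Pdlim5, Flnc, Des, Cryab, Nexn, Synpo2, Synpo2l, Xirp1, Xirp2, Fhl2, Ankrd1, Ankrd2, Ankrd23, Trim54, Trim55 and Trim63. Csrp3, a muscle LIM protein of the Z-disc, was at 4018 ± 785 CPM in CM and 161 ± 66.2 in NCM sums (SD, n = 4; log2 difference 5.27). Des, the muscle intermediate filament protein desmin, was at 497 ± 286 and 41.5 ± 30.8 CPM (4.30). In sums over a fraction, fewer muscle cells and less sarcomere RNA per cell cannot be told apart.

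Myh6 was at 5821 ± 2615 CPM in CM and 237 ± 224 in NCM sums (SD, n = 4). The ratio of CM to NCM was 93.0, 56.2, 13.8 and 14.5, larger in both WT than in both KO animals. Ttn gave 110.7, 48.7, 10.3 and 12.8, again with the WT animals above. Tpm1, which non-muscle cells also express, gave 23.4, 11.4, 10.5 and 11.7, with WT1 standing above the other 3.

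**Figure D3:**
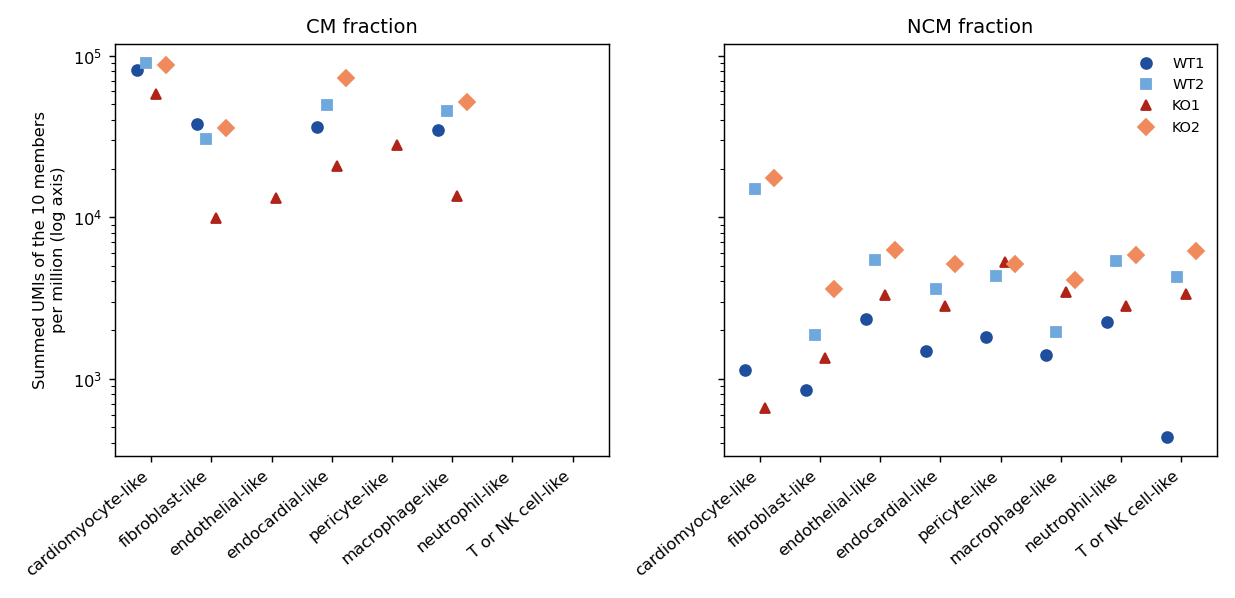
Summed level of the 10 sarcomere genes by marker-defined class, fraction and animal, in UMIs CPM on a log axis. Non-muscle classes of the CM fraction lie above the same classes of the NCM fraction.

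Sarcomere UMIs were not confined to the cardiomyocyte-like wells: every kept well of either fraction had at least 1. In the named non-muscle wells of the CM fraction (59, 58, 64 and 41 wells) the 10 genes summed to 36645, 41067, 14945 and 49388 CPM. That is 44.8, 45.4, 25.7 and 56.7% of the level in the cardiomyocyte-like wells of the same animal. In the named non-muscle wells of the NCM fraction (416, 430, 413 and 313 wells) they summed to 1209, 2659, 2581 and 4468 CPM, or 1.48, 2.94, 4.43 and 5.13%. The non-sarcomere cardiomyocyte markers were present there too, at 22905, 29238, 6084 and 32671 CPM in CM and 557, 1363, 1293 and 2493 in NCM non-muscle wells. After thinning each NCM non-muscle well to 2000 UMIs, 68.0, 75.1, 92.5 and 98.9% of wells still had a sarcomere UMI. The unnamed clusters 0, 1 and 11 are not part of these sets. With them, the NCM wells outside the cardiomyocyte-like class summed to 1581, 3656, 3052 and 6268 CPM. In each animal this was more than in the named non-muscle NCM wells, so the unnamed wells had the higher level.

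Sarcomere UMIs were found in every named class of the NCM fraction. Fibroblast-like wells had 852, 1874, 1344 and 3612 CPM, macrophage-like wells 1393, 1942, 3458 and 4103, and endothelial-like wells 2329, 5424, 3288 and 6250. Pericyte-like wells had 1803, 4332, 5306 and 5138 CPM, neutrophil-like wells 2230, 5348, 2812 and 5810, and T or NK cell-like wells 437, 4272, 3344 and 6203. Endocardial-like wells had 1485, 3613, 2839 and 5098 CPM. Of these non-muscle classes, fibroblast-like wells were the lowest in WT2, KO1 and KO2, and T or NK cell-like wells in WT1. The cardiomyocyte-like class of the NCM fraction held only 10, 20, 6 and 7 wells, with 2274, 60829, 384 and 14529 sarcomere UMIs. All other NCM wells were at 1581, 3656, 3052 and 6268 CPM, against 1570, 4146, 2999.7 and 6441 over all NCM wells. The cardiomyocyte-like NCM wells thus lay below the rest of the fraction in WT1 and KO1, and above it in WT2 and KO2. Those are pooled sums, and a few wells weighed heavily in them. The 10 NCM wells richest in sarcomere UMIs held 34.7, 31.2, 11.8 and 15.9% of them. The median NCM well outside the cardiomyocyte-like class was at 899, 1575, 2750 and 6613 CPM, with both KO animals above both WT animals.

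The fraction difference was also present inside a class that should lack sarcomere genes. In macrophage-like wells alone, chosen after seeing the data (33, 23, 22 and 21 CM wells), Tnnt2 was at 6757, 9438, 2483 and 9812 CPM in CM and 357, 328, 409 and 496 in NCM. The groups were far apart in each animal. Over the 10 genes the log2 differences ran from 3.28 to 5.48, and 8 were called by edgeR against 1.88% of 12047 genes called higher. Mybpc3 (adjusted p = 0.178) and Tcap (adjusted p = 0.0756) were not called, and over the alternatives their adjusted p ran from 1.15e-20 to 0.178 and from 3.91e-28 to 0.0756. Their macrophage-like NCM sums each held a high animal: KO2 for Mybpc3, at 515 against 9.52 to 69.3 CPM, and KO1 for Tcap, at 861 against 29.98 to 70.9. In KO1 the CM level of Tcap was 593 CPM, so the fraction difference of Tcap was reversed in that animal.

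**Figure D4:**
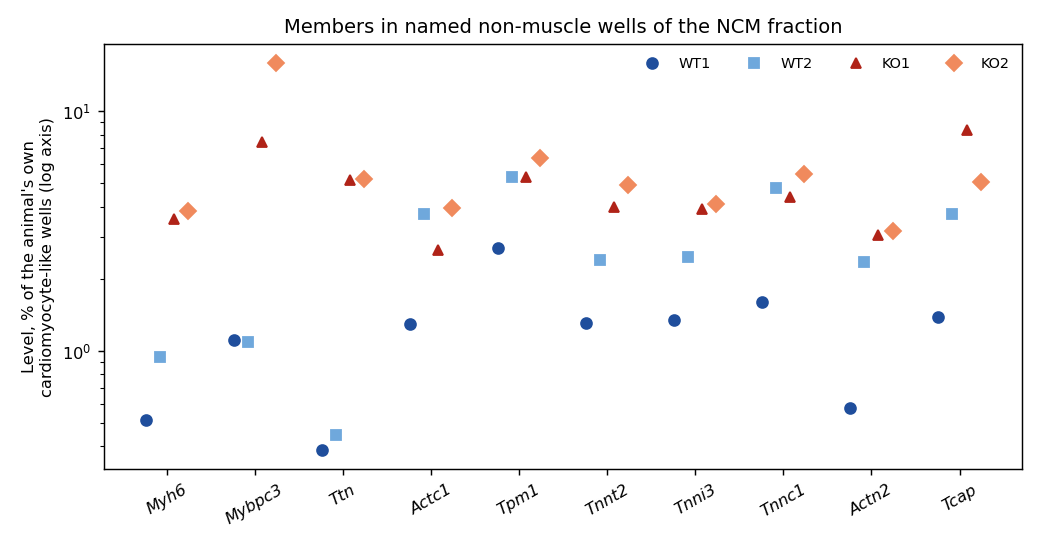
Level of each sarcomere gene in named non-muscle wells of the NCM fraction as a percentage of its level in the CM cardiomyocyte-like wells of the same animal. In NCM wells Ttn, Myh6 and Mybpc3 are at 0.384 to 1.10% in the WT animals and at 3.57 to 15.9% in the KO animals.

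The make-up of the background differed from that of the muscle wells most in the NCM wells of the WT animals, by the shares of Tpm1 and Ttn. Tpm1 supplied 22.9, 20.5, 23.5 and 21.4% of sarcomere UMIs in CM cardiomyocyte-like wells, and 22.3, 23.0, 26.3 and 21.6% in CM non-muscle wells. In NCM non-muscle wells it supplied 41.5, 36.9, 28.3 and 26.5%. Ttn supplied 10.7, 11.5, 8.45 and 8.41% in the CM cardiomyocyte-like, 7.53, 7.90, 7.91 and 6.56% in the CM non-muscle and 2.79, 1.74, 9.90 and 8.52% in the NCM non-muscle wells. In the NCM background both WT animals thus had a lower Ttn and a higher Tpm1 share than both KO animals.

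Comparing KO with WT over all NCM wells, Mybpc3, Myh6 and Ttn had the largest differences of the 10, and none passed edgeR's test. Mybpc3 was at 18.3, 32.0, 77.2 and 272 CPM (log2 difference 2.67, SE 0.665, edgeR adjusted p = 0.339). Myh6 was at 48.5, 140.07, 201 and 560.5 CPM (1.88, SE 0.673, adjusted p = 0.381). Ttn was at 53.1, 170.2, 299 and 532 CPM (1.75, SE 0.594, adjusted p = 0.377). For these 3 both KO animals were above both WT animals, as for 21.2% of all genes tested. The other differences were smaller: 0.80 for Actn2, 0.75 for Tnnt2, 0.48 for Actc1, 0.47 for Tnnc1, 0.34 for Tnni3, 0.12 for Tcap and 0.11 for Tpm1, and in each the genotypes overlapped. Markers of other cells moved with genotype in the same sums. The 5 erythroid markers summed to 8.87, 27.1, 63.0 and 102 CPM, and unnamed cluster 11, led by genes that include Bpgm and Alas2, held 3, 6, 58 and 123 NCM wells. The 10 macrophage markers summed to 8085, 9332, 3756 and 4767 CPM.

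All 10 differences were positive, where 49.7% of all genes were. Over 17216 genes edgeR called 0 (0%) and 2075 had an unadjusted p under 0.05 (12.1%). DESeq2 called 579, of which the 332 higher in KO were 1.93% of those tested. The same 3 genes, Mybpc3, Myh6 and Ttn, had an unadjusted p under 0.05, against 5.94% of all genes in that direction. DESeq2 called them (adjusted p 0.000169, 0.0244 and 0.0244), and so did edgeR without a filter on low counts (0.00176, 0.0296 and 0.0296), where 0.405% of genes were called higher. Over all alternatives the adjusted p ran from 0.000169 to 0.556 for Mybpc3, from 0.0244 to 0.755 for Myh6 and from 0.0244 to 0.824 for Ttn. Leaving out single animals moved the value of Myh6 between 0.85 (without KO2) and 2.86 (without WT2), that of Ttn between 1.12 (without WT1) and 2.85 (without WT2), and that of Mybpc3 between 1.38 (without KO2) and 3.35 (without KO1).

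**Figure D5:**
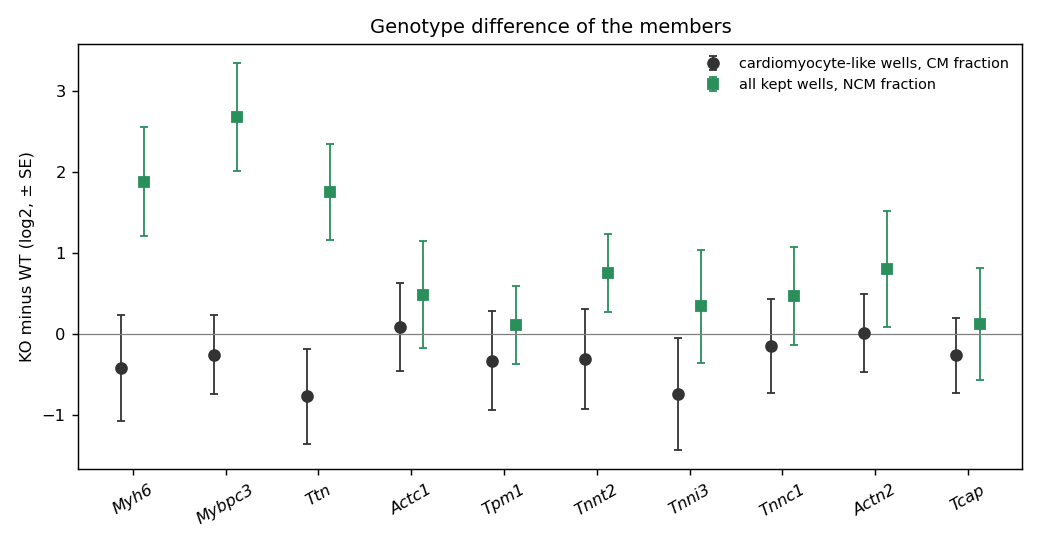
Log2 difference, KO minus WT, of each sarcomere gene with its standard error, in CM cardiomyocyte-like wells and in all NCM wells (edgeR, 2 animals per genotype). Mybpc3, Myh6 and Ttn lie at 2.67, 1.88 and 1.75 in NCM wells and below 0 in the cardiomyocyte-like wells.

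The 3 genes stood apart from the remaining 7 by transcript length as well. The principal transcripts of Ttn (100404 bases), Myh6 (6113) and Mybpc3 (4163) were the longest of the 10, and Tnnc1 (721) was the shortest. Across the 10 genes length and NCM log2 difference had a Spearman correlation of 0.71 (n = 10 genes of the same 4 sums), against 0.21 across all genes with a length, 98.7% of those tested. Genes of 4000 bases or more had a median log2 difference of 0.20 (4526 genes), shorter genes -0.09 (12459 genes). In the cardiomyocyte-like wells the correlation was -0.27 for the 10 genes and -0.09 for all. The part of length in the difference was not tested.

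Within the named non-muscle NCM wells alone, a choice made after seeing the data, Ttn was at 33.7, 46.3, 256 and 380.5 CPM, with both KO animals far above both WT animals. Its edgeR log2 difference was 2.85 there (adjusted p = 0.408), that of Mybpc3 was 3.27 (adjusted p = 0.408) and that of Myh6 was 1.83 (adjusted p = 0.417), with 0 of 16181 genes called (0%). These wells do not include the unnamed clusters 0, 1 and 11. Cluster 0 held 108, 85, 33 and 18 NCM wells, and cluster 1 held 155, 162, 205 and 286. In KO2, 3781 of the 6572 Mybpc3 UMIs of the named non-muscle NCM wells lay in the macrophage-like wells. In NCM wells with under 30% mitochondrial UMIs, which are only 18 of KO1 and 160 of KO2 against 645 and 570 of the WT animals, the values were smaller, at 0.75 for Ttn, 1.97 for Mybpc3 and 0.96 for Myh6.

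Of the 51 other sarcomere genes, 47 could be tested in NCM wells. Of these, 36 were higher and 11 lower in KO, 0 passed edgeR's test, 11 had an unadjusted p under 0.05, all higher, against 5.94% of all genes, and the median was 1.08 against -0.01. Groups did not overlap for 22 higher genes, against 21.2% of all genes, and for 0 lower genes. The largest non-overlapping differences were 5.22 for Mybpc2, the fast myosin-binding protein C, 3.38 for Myh7b, a slow myosin heavy chain, and 3.33 for Lmod3. Mybpc2 had 4, 1, 12 and 107 UMIs and Myh7b 5, 15, 9 and 117, so both values rest on few UMIs and mostly on KO2. Among the light chains, Myl4 was at 2.74 ± 1.84 CPM in WT and 26.2 ± 8.50 in KO (SD, n = 2), and Myl7 at 8.23 ± 8.72 and 59.4 ± 39.2. Lmod3 was at 1.14, 1.83, 4.12 and 28.1 CPM, so its value of 3.33 also rests mostly on KO2. That value stood against -0.95 in the cardiomyocyte-like wells.

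The difference between the genotype effects of the fractions was tested directly, over all wells and with the animal as a block. All 10 genes had a smaller, or more negative, KO minus WT difference in CM than in NCM, and none passed edgeR's test. The median was -0.90 against -0.02 for all genes, of which 50.6% were negative. Mybpc3 was at -2.58 (SE 0.412, edgeR adjusted p = 0.657), Ttn at -2.57 (SE 0.541, adjusted p = 0.951) and Myh6 at -2.25 (SE 0.464, adjusted p = 0.951). These 3 had an unadjusted p under 0.05, as had 2.72% of all genes in that direction. The other 7 lay between -0.45 for Actc1 and -1.15 for Tnni3. Over 17509 genes edgeR called 0 (0%) and 866 had an unadjusted p under 0.05 (4.95%). DESeq2 called 116, of which those smaller in CM were 0.491% of the genes tested.

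DESeq2 called the interaction for Mybpc3, Ttn and Myh6 (adjusted p 0.000246, 0.00253 and 0.00528), as did edgeR without the filter (0.00874, 0.0104 and 0.0325), with 0.107% of genes called in that direction. The adjusted p over their alternatives ran up to 1. In wells under 30% mitochondrial UMIs the values were -1.53, -0.46 and -0.76. The comparison shares its NCM sums with the NCM comparison, so the same NCM values enter both.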

How the data were processed

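Single-well RNA-seq of 4 chips was analysed. The submitters' processing notes name STAR 2.5.2b, Subread 1.4.6-p1, featureCounts and the mm10 build. The authors deposited a UMI count for each gene in each well, and the sums equal the UMIs of their per-well reports. No label or header states the annotation release, the strand setting or the UMI collapsing, so overlapping or antisense reads cannot be told apart. Symbols matched 28604 of 29245 gene columns, and 0 columns lacked a sample.

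Control wells, 42 mitochondrial and haemoglobin genes and spike-ins (4.98e-05% of UMIs) were left out. Wells were clustered with scanpy 1.11.5 and leidenalg 0.10.2 (2000 variable genes, 30 components, 15 neighbours, resolution 1.0), leaving out 61 sarcomere genes, and named from 3 or more markers among 30 leading genes. Class names are therefore marked "-like". Leading genes were taken against other wells of the same fractions, and against all other wells where no name was reached. Scrublet called 13, 3, 8 and 3 doublets in the WT NCM, WT CM, KO CM and KO NCM libraries, which were left in.

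Counts were summed per animal and tested with edgeR 4.0.16 (R 4.3.3; TMM, filterByExpr, Benjamini-Hochberg over all genes at 0.05). The same fit was run on simulated counts with known changes and 1 fixed dispersion, which does not measure its power in these data. DESeq2 1.42.0 was an alternative. P-values of KO against WT measure the spread between 2 animals per genotype. Those of CM against NCM rest on how the within-animal fraction difference varied over the 4 animals. Those of the difference between fractions rest on how it varied within a genotype. The 10 genes, the lists and the naming rules were chosen with earlier results of these data known. All 10 genes are named, and of the other sarcomere genes those that passed, the usual partners, or the 3 largest non-overlapping differences each way. No source says whether same-numbered WT and KO animals share a litter or a day, so the numbers were used as names.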

Additional observations from a re-analysis of the deposited data

Results flagged for a closer look

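Negative control wells, which should hold no cell, were not part of any comparison. On the WT CM chip 5 such wells held 120 UMIs of the 10 sarcomere genes among 1907 UMIs outside mitochondrial and haemoglobin genes (62926 CPM), and each of the 5 wells had at least 1. On the KO CM chip 5 such wells held 39 among 423 (92199 CPM), again in each well. On the NCM chips the counts were 2 of 634 for KO and 0 of 627 for WT, and a count of 0 allows up to 3. The signal in the control wells of the CM chips was therefore above that of the NCM chips, and its level CPM was near that of the cardiomyocyte-like wells.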

How the results depend on the processing

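With 2 animals per genotype every KO result is limited, and each genotype is also a chip. All 10 genes kept a positive CM against NCM difference under each alternative run, and 2 values, Mybpc3 and Tcap in macrophage-like wells, lost their call.

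Called genes in KO against WT cardiomyocyte-like wells were 0 with edgeR, 40 with DESeq2, 76 with no filter on low counts and 0 to 1083 on leaving out single animals, where the lone animal is assumed to vary like the others. CM against NCM called 2496, and 4607 with DESeq2, 3963 with library totals in place of TMM (1068 higher and 2895 lower, median over all genes -0.81), 750 in wells under 30% mitochondrial UMIs, 251 in macrophage-like wells and 1300 to 2620 on leaving out animals. KO against WT in NCM wells called 0, and 579 with DESeq2, 226 with no filter and 0 to 1 on leaving out animals. The difference between fractions called 0, and 116 with DESeq2, 43 with no filter and 0 to 5 on leaving out animals. With library totals the median log2 difference of all genes moved from 0.01 to 0.19 in cardiomyocyte-like wells, from -0.01 to 0.16 in NCM wells and from -0.02 to -0.12 for the difference between fractions. As CPM of all UMIs the summed level was 44294, 54136, 25080 and 54230.

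Signs turned as follows, and the cause was not tested. Cardiomyocyte-like wells under 30% mitochondrial UMIs (45, 78, 8 and 37 wells) gave Myh6 0.25, Mybpc3 0.11, Ttn 0.055, Actc1 -0.18 and Actn2 -0.16, and cluster 9 alone gave Mybpc3 0.14, Actc1 -0.028 and Actn2 -0.057. Actn2 was -0.00145 with DESeq2, -0.00795 with mitochondrial and haemoglobin genes kept and -0.091 with the replicate block. NCM wells under 30% (18 of KO1) gave Actc1 -0.15, Tpm1 -0.21, Tnni3 -0.031, Tnnc1 -0.49 and Tcap -1.47, and the difference between fractions gave Tcap 0.74. Leaving out animals in cardiomyocyte-like wells gave Myh6 -1.30 to 0.12, Mybpc3 -0.79 to 0.13, Actc1 -0.33 to 0.40, Tpm1 -0.86 to 0.053, Tnnt2 -0.87 to 0.090, Tnnc1 -0.84 to 0.32, Actn2 -0.67 to 0.46 and Tcap -0.63 to 0.023. In NCM wells it gave Actc1 -0.34 to 1.70, Tpm1 -0.45 to 0.89, Tnnt2 -0.00735 to 1.31, Tnni3 -0.90 to 1.33, Tnnc1 -0.33 to 1.49, Actn2 -0.28 to 1.85 and Tcap -0.64 to 1.80, and for the difference between fractions Actc1 -1.16 to 0.27 and Tcap -1.78 to 0.21.

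The same-numbered animals WT1 and KO1 had deviations from their genotype means correlated at 0.138 in cardiomyocyte-like and -0.005 in NCM wells. With 2 animals per genotype, WT2 and KO2 give the same value by construction. With the replicate block 0 genes were called in either, and without the animal as a replicate block CM against NCM called 2739.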
